A study of Mus musculus with 6 samples.

Results

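The deposited testis expression table held 196 genes, and 116 of them carried only a provisional name, either Gm followed by digits (92 loci, the symbol given to gene predictions) or a name ending in Rik (24 loci, first found as RIKEN cDNA clones). These 116 loci were picked by their names alone. By the descriptions in the table, 91 were predicted genes, 24 were RIKEN cDNAs and 1 was a predicted pseudogene. GENCODE vM39, an annotation of the GRCm39 assembly used in the study, held 115 of the 116 and classed them as 45 pseudogenes, 43 long noncoding RNA (lncRNA) genes, 20 protein-coding genes and 7 loci of the type TEC (transcribed loci whose nature is still open). The identifier of 4930540I17Rik was not found in it. The RIKEN loci were mostly lncRNAs (19 of 24) and the Gm loci more often pseudogenes (44 of 92).

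Testis RNA came from male C57BL/6 mice that were 6 weeks old on arrival. Over 16 days, mice received either normal saline or 7.5 mg/kg/d of Nano-Sb2O3 (nanoparticles of antimony trioxide) by intranasal instillation, and 3 mice of each of these groups were sequenced. Library names and sample titles disagree on which mice were exposed. The 3 libraries named con, whose values the table averages as CON, have titles of high-dose mice, and the other 3, averaged as T, have titles of control mice. The groups are therefore called CON and T, with mice numbered 1 to 3 in each, and every difference is T relative to CON, the order of the fold change in the table's headers. If the table's naming is right, T is the exposed group. If the titles are right, every direction reads the other way round in terms of exposure.

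Every one of the 196 genes had been selected by the authors for a difference between these same groups (in the table, an unadjusted p below 0.05 and a change of 1 or more on the log2 scale, either way). The methods name an adjusted p-value for this selection in some places and an unadjusted one in another, and most listed genes do not reach 0.05 by the table's adjusted values. A difference in a listed locus is therefore what put it in the table, and the tests given here describe its size against the spread between mice and are not independent evidence of it. Values are TPM, reads scaled for transcript length and library total. The read counts behind them are unknown, so a value of 0 is given as listed at 0 and no counting error is stated. Over all 196 genes the listed values summed to 880.38 to 1775.64 TPM per library, and libraries correlated more closely within a group (r of log2 values 0.776 to 0.891 across genes) than between groups (0.356 to 0.592). These genes were selected for a difference between the groups, so a lower correlation between groups follows from that selection. None of the 8 germ cell, 5 Sertoli cell or 5 Leydig cell markers looked for was among the listed genes, so the tissue could not be checked against them. Of the other cell types, the table listed 3 of 7 fat cell markers (Fabp4, Cfd and Car3) and 1 of 6 leukocyte markers (Plek).

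As background, a processed pseudogene is a DNA copy of a spliced messenger RNA that was inserted elsewhere in the genome, and copies of ribosomal protein messages are especially common. A lncRNA is a long transcript with no evident protein product, often but not always spliced, and the testis transcribes more of them than most tissues. The long arm of the mouse Y chromosome consists largely of many near-identical copies of a few genes used in spermatids, among them Ssty1 and Ssty2, which encode spindlin-related proteins, and Sly, a partner of the X-linked Slx family. Reads from such copies can fit several places in the genome, so which copy a read is credited to depends on the aligner and counter.

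Sequences of 3 pseudogenes with large differences, and of 1 diverged pseudogene that also passed the test, show how far such copies can be told from their parent genes. The full transcripts of Gm28900 (chr1:56490566-56490721, plus strand), Gm7329 (chr1:65134386-65134595, plus strand) and Gm14868 (chrX:108323791-108324006, minus strand) and the first 150 bases of Gm11243 (chr4:76711966-76712115, plus strand) are given 5′ to 3′ from GRCm39. Capitals mark bases that differ from, or lie outside the alignment to, the messenger RNA of the closest named protein-coding gene.
Gm28900: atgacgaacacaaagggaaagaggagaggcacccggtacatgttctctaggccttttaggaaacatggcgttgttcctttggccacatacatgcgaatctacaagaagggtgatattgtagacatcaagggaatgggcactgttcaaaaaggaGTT
Gm7329: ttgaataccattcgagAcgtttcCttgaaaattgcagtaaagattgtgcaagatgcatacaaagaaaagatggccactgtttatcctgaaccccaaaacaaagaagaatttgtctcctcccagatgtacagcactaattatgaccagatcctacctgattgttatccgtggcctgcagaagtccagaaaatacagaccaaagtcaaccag
Gm14868: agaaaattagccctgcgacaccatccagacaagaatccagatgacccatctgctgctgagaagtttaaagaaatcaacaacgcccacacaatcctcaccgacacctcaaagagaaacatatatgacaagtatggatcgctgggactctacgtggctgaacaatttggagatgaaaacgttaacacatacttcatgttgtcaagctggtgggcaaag
Gm11243: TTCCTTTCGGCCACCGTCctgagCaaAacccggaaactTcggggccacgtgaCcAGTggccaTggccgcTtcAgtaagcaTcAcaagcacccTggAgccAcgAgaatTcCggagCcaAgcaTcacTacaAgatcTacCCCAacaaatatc

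Gm28900 was compared with Rpl21, a protein of the large ribosomal subunit, and 153 of its 156 bases matched with no mismatch, the last 3 falling outside the alignment. Gm7329 differed from Me1, the cytosolic malic enzyme, by G17A and G24C, written as the base of Me1, the position from the 5′ end of Gm7329 and the base of Gm7329. Gm14868 matched Dnajc5b, a J-domain chaperone gene, over all of its 216 bases. Gm11243 stands apart, with 46 of the 150 printed bases in capitals against Rpl27a, another large-subunit ribosomal protein gene. A read from the first 3 loci therefore carries few or no bases that tell it from the parent gene, whereas a read from Gm11243 carries many.

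Copies on the Y chromosome can be compared in the same way. A stretch of 120 bases, from base 182 to base 301 of each transcript, is shown for 6 of the 17 loci closest to Ssty2, the 3 of highest mean TPM whose T values all lay above their CON values (Gm20868, Gm21832 and Gm20861) and the 3 whose T values all lay below (Gm21890, Gm21127 and Gm21435). Capitals mark bases that differ from the most common base among the 17 loci, and the stretch was chosen as the one with most such bases in these 6.
Gm20868, chrY:71309618-71309737, minus strand: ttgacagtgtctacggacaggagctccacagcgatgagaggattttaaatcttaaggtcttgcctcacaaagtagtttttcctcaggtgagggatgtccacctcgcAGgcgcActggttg
Gm21832, chrY:61394090-61394209, minus strand: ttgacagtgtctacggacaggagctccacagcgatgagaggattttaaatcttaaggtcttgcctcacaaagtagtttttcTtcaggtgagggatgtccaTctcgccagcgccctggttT
Gm20861, chrY:86377392-86377511, minus strand: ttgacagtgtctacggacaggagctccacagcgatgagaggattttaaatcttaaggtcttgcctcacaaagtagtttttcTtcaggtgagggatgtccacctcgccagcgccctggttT
Gm21890, chrY:25876668-25876787, plus strand: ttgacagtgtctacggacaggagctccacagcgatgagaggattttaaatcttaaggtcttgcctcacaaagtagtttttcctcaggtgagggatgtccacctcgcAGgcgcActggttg
Gm21127, chrY:68476318-68476437, plus strand: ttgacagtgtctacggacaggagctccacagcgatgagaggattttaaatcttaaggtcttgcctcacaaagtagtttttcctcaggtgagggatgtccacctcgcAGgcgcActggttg
Gm21435, chrY:85900614-85900733, minus strand: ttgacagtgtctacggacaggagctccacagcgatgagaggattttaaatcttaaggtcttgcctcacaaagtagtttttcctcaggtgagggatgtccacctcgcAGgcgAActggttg

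Gm20868, listed higher in T, was identical over this stretch to Gm21890 and Gm21127, both listed lower. Gm21832 and Gm20861 shared 2 marked bases. Over their whole transcripts the 9 pairs of a printed higher and a printed lower copy differed at 1 to 13 bases (98.12% to 99.86% identity). Among all 136 pairs of the 17 loci identity ran from 95.76% to 99.86% with a median of 98.51%, and no pair was identical.

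Across the 116 loci most values were lower in T than in CON. The mean of log2(TPM + 1) was higher in T for 34 loci and lower for 82, and the median difference was -0.67, against -0.535 over all 196 listed genes and -0.215 over the 80 other listed genes. In 19 loci all 3 T values lay above all 3 CON values, and in 52 they all lay below, where the same counts over the whole table were 20.4% higher and 42.3% lower. The share among the Gm and Rik loci was 16.4% higher and 44.8% lower, near that background. After a median-ratio scaling of the libraries over the listed genes (factors of 1.312 to 1.489 for CON and 0.773 to 0.903 for T), 22 lay wholly above and 20 wholly below. The scaling shifts all loci one way by less than the change they were selected for, so that no locus turned its direction says nothing about stability. This scaling rests on 104 selected genes. It moved the median difference of all listed genes by 0.31 on the log2 scale, to -0.226, and that of the 116 loci to -0.305. Most listed genes were lower in T (129 of 196), so factors taken from them remove part of the difference they were selected for. A separation or call lost or gained after scaling, here and below, is therefore partly built in and says little about stability. In a bulk sample, fewer cells of a type and less RNA per cell cannot be told apart.

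**Figure D1:**
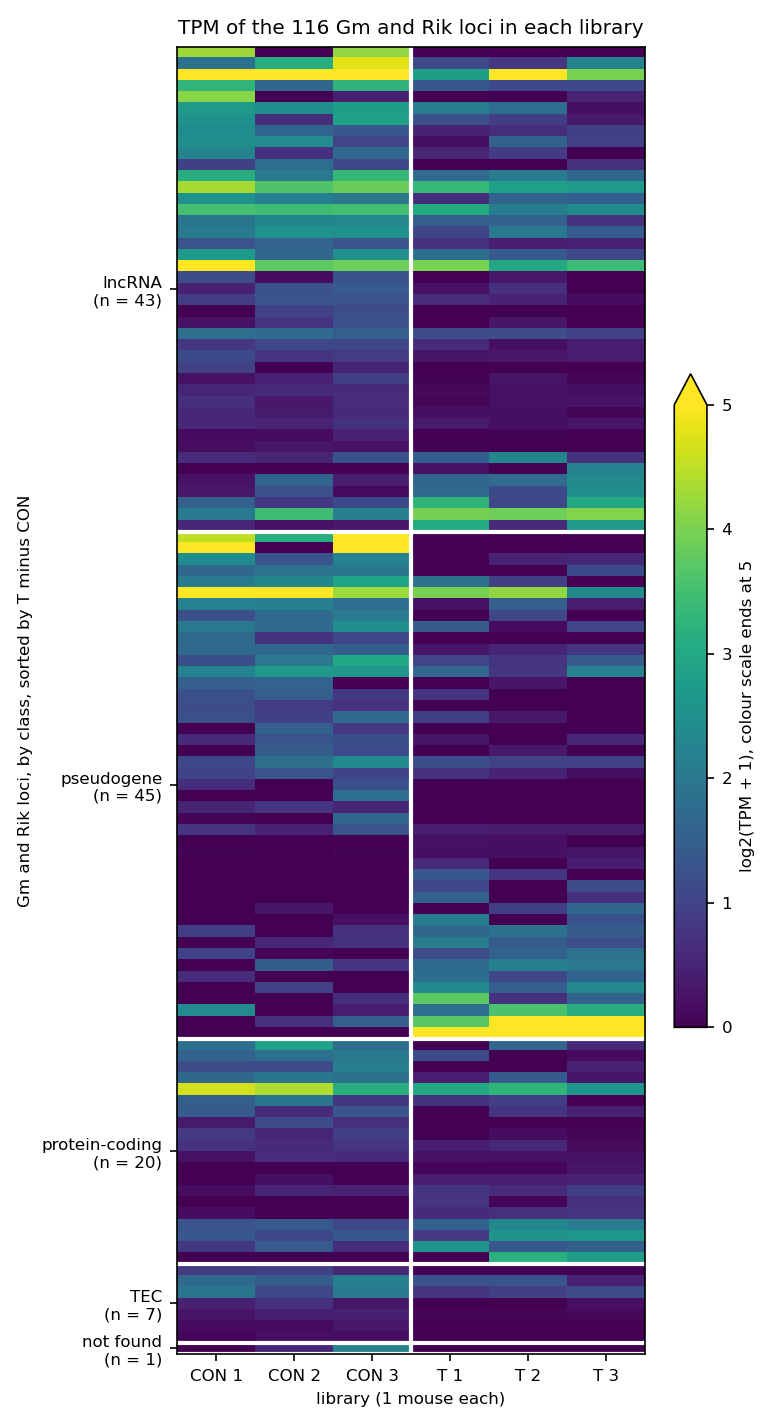
Each row is 1 of the 116 Gm and Rik loci and each column 1 library. Colour gives log2(TPM + 1) up to 5, and rows are grouped by annotated class and sorted by the difference, T minus CON. Within lncRNAs (7 higher, 36 lower) and TEC loci (0 higher, 7 lower) most rows are darker in T, while pseudogenes (18 higher, 27 lower) hold blocks listed at or near 0 in one group and above it in the other.

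Detection, a value above 0, followed the same direction. CON mice 1, 2 and 3 had 93, 92 and 99 of the 116 loci above 0, and T mice 1, 2 and 3 had 82, 85 and 84. The groups did not overlap. Among the other 80 listed genes the shares above 0 were 92.5% to 93.8% in CON and 78.8% to 88.8% in T, also without overlap. All 6 libraries detected 51 loci. 17 loci were listed at 0 in every T mouse and 10 in every CON mouse. Of these, 8 and 3, respectively, were above 0 in all 3 mice of the other group. Over all 196 listed genes the same counts were 25 and 10, with 14 and 3 above 0 in all mice of the other group. Among the 80 other listed genes they were 8 and 0, with 6 and 0.

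Most levels were low. The mean over 6 libraries was at least 10 TPM in 10 loci and under 1 TPM in 55, with a median of 1.11 TPM over the 116. Together the loci made up 23.4%, 21.8% and 36.3% of the listed TPM in CON mice 1, 2 and 3 and 52.5%, 37.6% and 27.8% in T mice 1, 2 and 3. One locus carried much of the T total. Without Gm28900 the summed TPM was 415.9, 293.6 and 494.31 in CON and 195.37, 251.05 and 219.68 in T, and the groups no longer overlapped. With it, the T sums were 581.27, 330.93 and 347.96.

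By limma on log2(TPM + 1) over all 196 genes, with a Benjamini-Hochberg adjusted p-value under 0.05 and an absolute difference of at least 1, 2 loci rose (Gm28900 and Gm10731) and 3 fell (Gm14868, Gm11243 and Gm21435). The background over the whole table was 1.53% called higher and 2.55% called lower, against 1.72% and 2.59% of these loci. All 5 are annotated as pseudogenes. A further 5 loci had an adjusted p-value under 0.05 and a difference under 1. With 20 possible assignments of the mice, an exact permutation test of a single locus (two-sided) cannot give a p-value below 0.10, the value reached where the groups do not overlap.

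**Figure D2:**
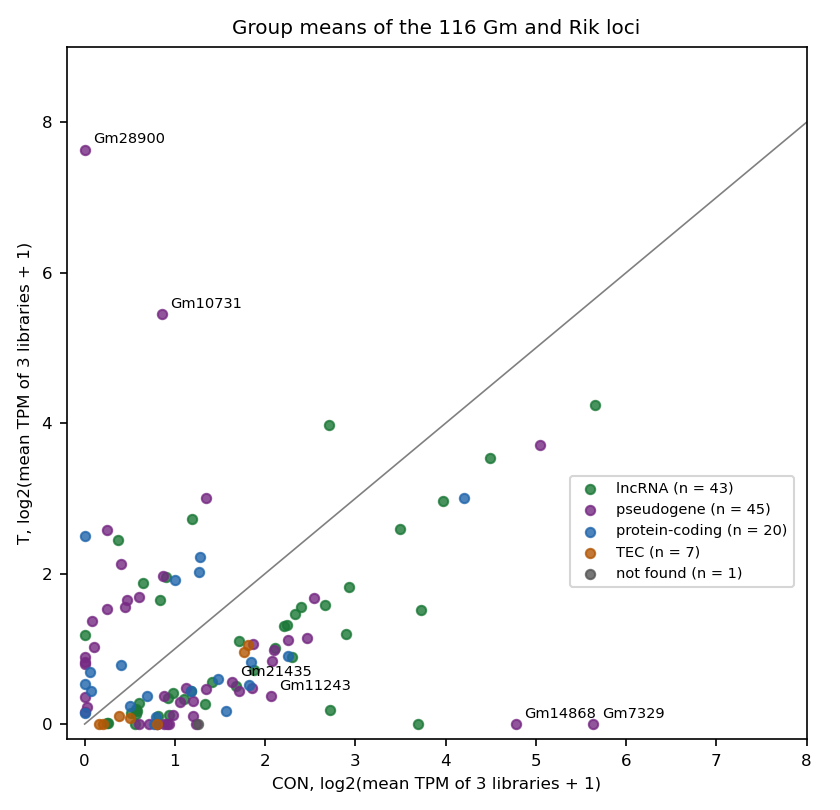
Each point is 1 of the 116 loci, placed by log2(mean TPM of 3 libraries + 1) in CON (horizontal) and T (vertical) and coloured by class, and the line marks equal values. Gm28900 and Gm10731 lie far above the line, and Gm14868 and Gm7329 lie on the horizontal axis because they were listed at 0 in all 3 T mice.

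The 17 pseudogenes off the Y chromosome with a close named protein-coding gene (at least 80% identity over at least 80% of the transcript) held the 2 largest differences in each direction. 8 were higher in T (5 without overlap) and 9 lower (7 without overlap), with a median difference of -0.604. The shares without overlap were 20.4% higher and 42.3% lower in the whole table. All 45 pseudogenes, at 22.2% and 40%, were near these. After scaling, 6 and 3 of the 17 were without overlap, and 11 and 7 of the 45. None of their parent genes was itself among the listed genes.

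Gm28900 (ENSMUSG00000100944), a processed pseudogene on chromosome 1, had the highest mean of all 116 loci. It was listed at 0 in all 3 CON mice and had 385.9, 79.88 and 128.28 TPM in T mice 1, 2 and 3. Every T mouse lay far above CON, and T mouse 1 was at over 3 times the value of either of the other two. Its transcript of 156 bases, like those of Gm14868 (216) and Gm7329 (210), is shorter than the 300-base fragments named in the labels. What this did to its TPM was not tested. The difference on the log2(TPM + 1) scale was 7.32 (SE 0.58, limma adjusted p = 0.00319), a size that depends on the pseudocount because CON was at 0. The call held in each alternative run, with adjusted p-values from 5.93e-06 to 0.0432. Of the windows of 50 bases in it, 99.1% occur more than once in GRCm39, and 87 other annotated genes match at least 80% of its length at 90% identity or more. One of them, Gm10095 on chromosome 12, was listed as well. Gm10095, also a processed pseudogene close to Rpl21 (98.76% identity), was at 0, 0 and 0.57 TPM in CON and at 12.29, 0.64 and 2 TPM in T. T lay above CON at both loci and T mouse 1 was the highest mouse at both, but Gm10095 did not pass the test (adjusted p = 0.115). Whether reads were shared between these loci and Rpl21 was not tested.

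Gm10731 (ENSMUSG00000074620), a transcribed processed pseudogene on chromosome 3 (40809111 to 40809558, minus strand), copies Fundc2b with 100% identity over its whole length, and Fundc2b lies 45072 bases farther along the same chromosome. It had 0, 0.62 and 1.8 TPM in CON mice 1, 2 and 3 and 12.02, 64.14 and 51.68 TPM in T mice 1, 2 and 3. The groups did not overlap, and here T mouse 1 was the lowest of the T mice. The difference was 4.42 (SE 0.73, limma adjusted p = 0.0373). Leaving out CON mouse 1, CON mouse 3 or T mouse 3 took the adjusted p-value to 0.0644, 0.0534 and 0.117. Its neighbour Gm2011, a transcribed unprocessed pseudogene 2733 bases away on the opposite strand, went the other way. Gm2011 had 2.31, 0.66 and 1.09 TPM in CON and was listed at 0 in every T mouse (difference -1.17, adjusted p = 0.0558).

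Gm14868 (ENSMUSG00000081681), the Dnajc5b copy on the X chromosome, was the clearest locus in the other direction. It had 21.85, 7.61 and 49.64 TPM in CON mice 1, 2 and 3 and was listed at 0 in all T mice. The difference was -4.43 (SE 0.64, limma adjusted p = 0.0373), and it missed the threshold without CON mouse 1 (0.0614), T mouse 1 (0.0582) or T mouse 3 (0.117). Gm7329, the Me1 copy on chromosome 1, had 44.99, 0 and 101.38 TPM in CON and was at 0 in all T mice. Because CON mouse 2 was also at 0, the groups overlapped and the locus did not pass (difference -4.07, SE 1.77, adjusted p = 0.113), although CON mouse 3 held the highest value of any locus in CON.

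Gm49037 on chromosome 14, a copy of the protein kinase gene Mapk6 with 100% identity, had 34.22, 43.37 and 18.35 TPM in CON and 14.76, 17.29 and 4.27 TPM in T. The lowest CON mouse was above the highest T mouse by about 1 TPM (difference -1.44, SE 0.58, adjusted p = 0.105). Gm11243 (ENSMUSG00000081890), the diverged Rpl27a copy on chromosome 4, had 4.36, 1.54 and 3.62 TPM in CON and 0, 0.39 and 0.48 TPM in T. None of its 50-base windows recurs in the genome. Its difference was -1.64 (SE 0.34, limma adjusted p = 0.0449), and of the 6 fits that leave out 1 mouse only the one without CON mouse 2 kept the call (limma adjusted p = 0.0641 to 0.134 in the others). It was also lost after scaling (0.0565), with a pseudocount of 0.1 (0.0577) and at a mean of at least 1 TPM (0.0633). Gm6278, close to the ribosomal stalk gene Rplp0, had 1.26, 0.83 and 0.64 TPM in CON and was at 0 in every T mouse (difference -0.92, adjusted p = 0.0373).

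The ribosomal protein copies did not share a direction. Gm28900 and Gm10095 (Rpl21) and Gm9616 (Rps4x, of the small subunit) were higher in T without overlap, and Gm11243 (Rpl27a) and Gm6278 (Rplp0) lower without overlap. Gm9616 had 0, 0.97 and 0 TPM in CON and 4.2, 1.8 and 4.14 TPM in T (difference 1.75, adjusted p = 0.0508).

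**Figure D3:**
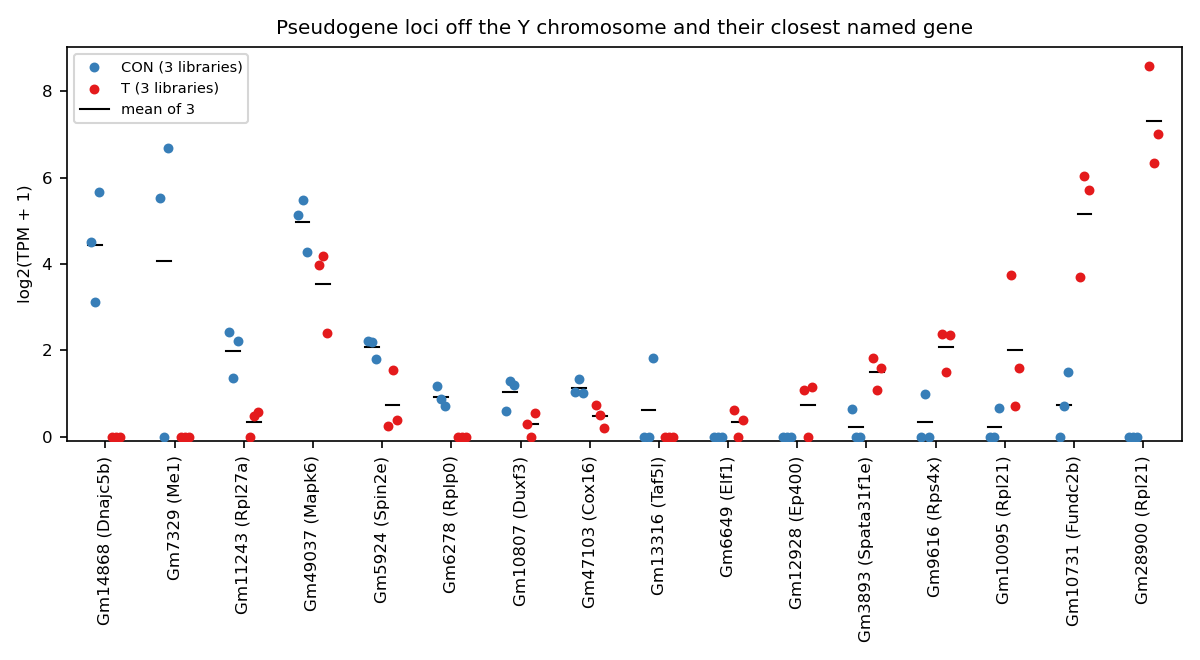
log2(TPM + 1) of 16 of the 17 pseudogenes off the Y chromosome in each library, with the closest named gene in brackets. Points are single mice, CON in blue and T in red, and bars are means of 3. From left to right the difference goes from -4.43 at Gm14868 to 7.32 at Gm28900, and the loci at both ends are at or near 0 in one group.

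The Y chromosome held 25 of the 116 loci, 17 closest to Ssty2 (95.63% to 100% identity), 2 to Ssty1 (99.14% and 100%) and 6 to Sly (98.8% to 99.89%). They lay between positions 12175563 and 86377692, and at least 92.6% of the 50-base windows of each recurred in the genome. 8 were higher in T and 17 lower, 4 (16%) and 10 (40%) of them without overlap, near the 20.4% and 42.3% of the whole table, and after scaling 4 and 4. Copies of the same gene thus stood on both sides. Among the 17 closest to Ssty2, 6 were higher and 11 lower.

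Gm21435 (ENSMUSG00000099992), closest to Ssty2, was the Y-linked locus that passed the test. It had 2.31, 2.21 and 1.78 TPM in CON and 0.23, 0.43 and 0.74 TPM in T (difference -1.09, SE 0.18, limma adjusted p = 0.0373). After scaling the difference was -0.68 (adjusted p = 0.077), the call was also lost with a pseudocount of 0.1 (0.0546) and at a mean of at least 1 TPM (0.0672), and with 1 mouse left out the call held only without CON mouse 2 or T mouse 2 (adjusted p = 0.0534 to 0.0633 otherwise). Gm21890 had the highest mean of the copies of Ssty2, with 3.77, 5.54 and 5.09 TPM in CON and 2.12, 0.74 and 3.68 TPM in T, separated by less than 0.1 TPM (difference -0.97, adjusted p = 0.105). Gm20868 had 0, 1.78 and 0.69 TPM in CON and 2.27, 3.48 and 3.01 TPM in T, the reverse order (difference 1.21, adjusted p = 0.0829). Gm21890 and Gm20868 are 2 of the copies printed above as identical over 120 bases.

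Gm21678, one of the 2 copies of Ssty1, had 3.22, 3.88 and 6.47 TPM in CON and 2.69, 0.93 and 0 TPM in T (difference -1.48, adjusted p = 0.0906). The other, Gm20910, was likewise lower without overlap. Among the 6 copies of Sly, Gm20937 had 1.99, 2.56 and 3.03 TPM in CON and 1.18, 0 and 0.1 TPM in T (difference -1.39, adjusted p = 0.0625). Gm20814 was listed at 0 in all CON mice and had 0.68, 0.05 and 0.61 TPM in T. Both are annotated as protein-coding, and they pointed in opposite directions.

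A sum over copies of a gene depends little on which of the listed copies a read was credited to. It still depends on reads credited to copies that are not listed. At 80% of the length and 90% identity, each Ssty2 copy matched 490 to 493 other annotated genes. The same count was 386 for each Ssty1 copy and 104 to 142 for the Sly copies. Whether reads moved between listed and unlisted copies was not tested. The copies of Ssty1 and Ssty2 summed to 19.38, 30.38 and 34.96 TPM in CON and 18.14, 13.88 and 16.14 TPM in T. The groups did not overlap, with CON mouse 1 just above T mouse 1. After scaling the sums were 13.24, 23.15 and 23.48 in CON and 22.66, 15.37 and 20.89 in T, and the groups overlapped. The copies of Sly summed to 8.18, 8.84 and 11.73 TPM in CON and 7.62, 1.06 and 3.55 TPM in T, and overlapped after scaling as well (5.59 to 7.88 in CON, 1.17 to 9.52 in T). T mouse 1 had the highest sum of the T mice in both families. Copies that did not reach the table were not analysed here, so these sums are not the output of the families.

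**Figure D4:**
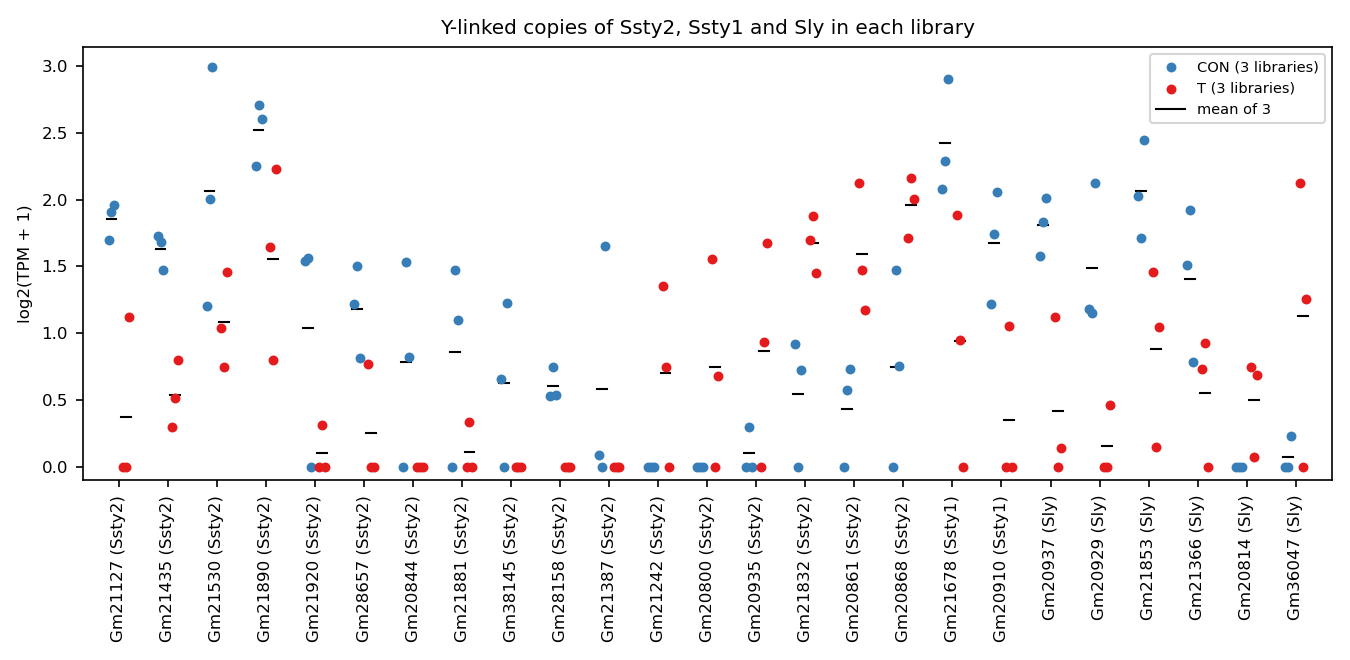
log2(TPM + 1) of the 25 Y-linked loci in each library, with the closest named gene in brackets. Points are single mice, CON in blue and T in red, and bars are means of 3. Within the copies of Ssty2 the loci run from lower in T (Gm21127, Gm21435) to higher in T (Gm20861, Gm20868).

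The X chromosome held 6 loci, and all 6 had mostly recurring windows. 5 of them were lower in T and 1 higher. Gm14632, a protein-coding gene closest to Slx, was the most abundant protein-coding locus. It had 24.31, 20.19 and 7.86 TPM in CON and 7.26, 8.72 and 5.06 TPM in T, so that only CON mouse 3 fell within the T range (difference -1.10, SE 0.45, adjusted p = 0.105). Gm5924 and Gm21637, copies of spindlin genes of the Spin2 family, were both lower without overlap. Gm21637 (named Spin2j in the annotation) had 2.54, 6.25 and 2.48 TPM in CON and 0, 2.1 and 0.52 TPM in T (adjusted p = 0.0918). Gm5924 had 3.65, 3.54 and 2.47 TPM in CON and 0.18, 1.89 and 0.31 TPM in T (adjusted p = 0.0712). Neither of the 2 was without overlap after scaling.

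Of the 20 protein-coding loci, 9 were higher in T and 11 lower. Without overlap were 6 (30%) and 7 (35%), near the 30% and 36.7% of the 60 other listed protein-coding genes. The whole table had 20.4% and 42.3%. After scaling the counts were 7 and 3. Of the 20, 0 passed the limma test. An unadjusted limma p-value under 0.05 was reached by 9, a share near that of the whole table (92 of 196). 4 loci on chromosome 2 close to the zinc-finger genes Zfp966, Zfp968 and Zfp970 were all lower. Gm14391 had 2.22, 2.89 and 2.65 TPM in CON and 0.32, 1.76 and 0.22 TPM in T (difference -1.12, adjusted p = 0.0794). Gm14443, which lies within the span of Gm14391 on the same strand, had 0.65, 0.51 and 0.68 TPM in CON and 0.33, 0.47 and 0.09 TPM in T. Both were without overlap, and neither was after scaling.

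6 loci, 5 of them protein-coding and Gm28037 a lncRNA, share exons with a pair of neighbouring named genes on the same strand, the layout of a read-through transcript that joins both. 4 were higher in T and 2 lower. Gm20431, which joins exons of Ube2v1 and Peds1, was listed at 0 in the 3 CON mice and in T mouse 1 and had 7.99 and 5.91 TPM in T mice 2 and 3. Its T mice thus split, and it did not pass (difference 1.99, SE 0.86, adjusted p = 0.113). Gm49388, which joins exons of the histone methyltransferase gene Setd1a and of Hsd3b7, had 1.47, 1.67 and 1.1 TPM in CON and 1.92, 4.02 and 3.25 TPM in T (adjusted p = 0.0841). Gm42420, which joins Adck2 and Ndufb2, had 0.29, 1.22 and 0.59 TPM in CON and was at 0 in every T mouse (adjusted p = 0.0789). None of the genes these 3 join was itself listed. Gm16867 on chromosome 14 had 1.55, 1.13 and 1.59 TPM in CON and 0.8, 4.94 and 5.2 TPM in T, with T mouse 1 below CON and the other two above.

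Of the 43 lncRNA loci 36 were lower in T, with a median difference of -0.742, and 21 were lower (48.8%) and 3 higher (6.98%) without overlap, where the whole table had 42.3% and 20.4%. After scaling the median was -0.313, and 6 were lower and 4 higher without overlap. 0 passed the limma test. Of the 43, 21 had an unadjusted limma p-value under 0.05, a share near that of the whole table (92 of 196). Their transcripts were mostly unique in the genome. Only 2 of 43 had mostly recurring windows, against 39 of 45 pseudogenes, and 32 had under 5% recurring. Summed over the class, the lncRNAs had 221.6, 144.99 and 222.4 TPM in CON and 95.15, 97.22 and 94.32 TPM in T. The T mice differed among themselves by under 3 TPM, and all lay below CON. After scaling, CON mouse 2 had 110.49 and the other CON mice 149.35 and 151.38, T mice had 107.66 to 122.08, and the groups overlapped.

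1700024I08Rik, a spliced lncRNA of 5 exons on chromosome 13 (63823569 to 63882163, minus strand), was the most abundant of them. It had 40.78, 42.05 and 65.12 TPM in CON and 5.86, 32.95 and 15.02 TPM in T. All T mice were below all CON mice, with T mouse 2 near the CON range (difference -1.66, SE 0.61, adjusted p = 0.0918). Gm43101 on chromosome 5 was the next in level, with 38.28, 12.29 and 13.94 TPM in CON and 14.91, 7.14 and 9.78 TPM in T. Here the groups overlapped, and CON mouse 1 alone lay far above the rest (difference -0.83, adjusted p = 0.18).

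2 RIKEN lncRNAs on chromosome 13, 15489 bases apart and on opposite strands, were both lower but in different ways. 1700084F23Rik had 18.52, 0 and 17.32 TPM in CON and was listed at 0 in every T mouse, so that CON mouse 2 did not differ from T (difference -2.83, SE 1.22, adjusted p = 0.113). 4933416O17Rik had 7.69, 3.12 and 9.11 TPM in CON and 2.34, 3.14 and 2.12 TPM in T, and CON mouse 2 was again the lowest CON mouse (adjusted p = 0.0918). 1810019N24Rik on chromosome 7 spread widely among CON mice, with 2.66, 7.63 and 26.37 TPM, and had 1.09, 0.73 and 3.8 TPM in T (difference -1.88, adjusted p = 0.114).

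Among the 15 lncRNAs of highest mean, 13 were lower in T and 2 higher. Gm32655, on chromosome 17 between 36280466 and 36283516, had 3.22, 9.86 and 3.54 TPM in CON and 14.75, 13.83 and 15.77 TPM in T. It stands out by the small spread of its T mice and the lack of overlap, and is named here after its values were seen (difference 1.41, SE 0.39, adjusted p = 0.0708). The other one higher, Gm49208, overlapped between the groups. Of the 43 lncRNAs, 27 overlap an exon of a gene on the opposite strand. The labels name a stranded library kit and the study's methods an unstranded one, so reads of these loci and their antisense partners may not be separated. Of the 27, 22 were lower in T (median difference -0.718), and of the 16 without such an overlap, 14 were lower (-0.787).

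**Figure D5:**
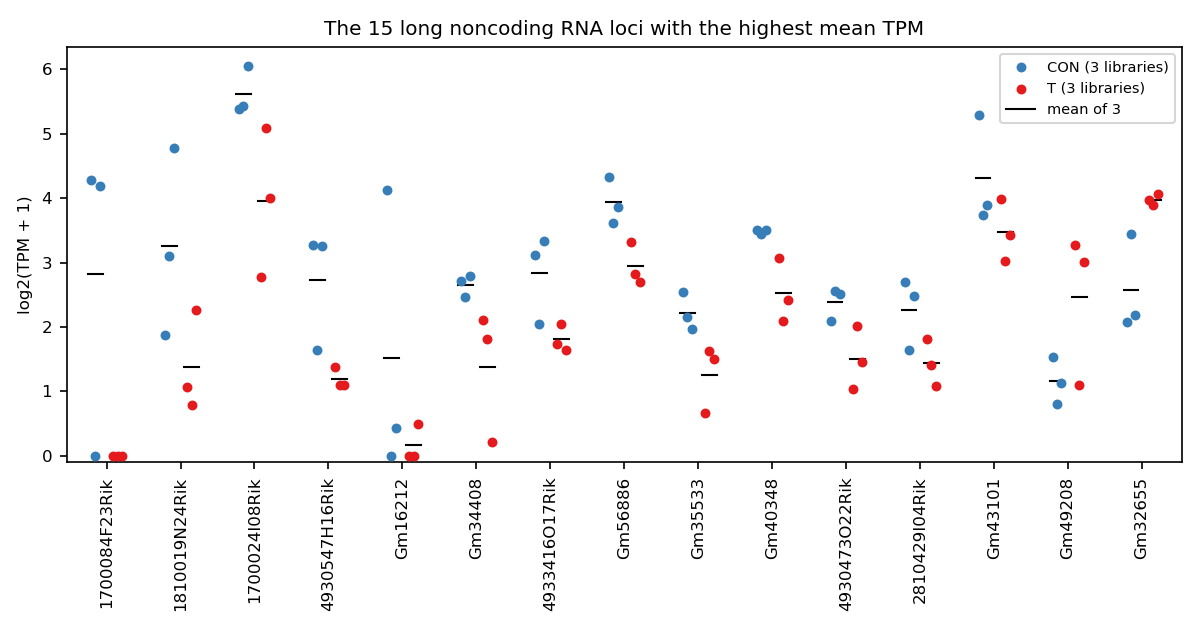
log2(TPM + 1) of the 15 lncRNA loci of highest mean TPM in each library, sorted by difference. Points are single mice, CON in blue and T in red, and bars are means of 3. At 13 loci the T mean lies below the CON mean, and only Gm49208 and Gm32655 at the right lie above.

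The 7 TEC loci were all lower in T, and all were of low level. Without overlap were 6 of them (85.7%), against 42.3% lower in the whole table, and 4 after scaling. 3 of the 7 were above 0 in all CON mice and listed at 0 in every T mouse, as were 14 of all 196 listed genes. 4930597L12Rik had 2.3, 1.79 and 3.4 TPM in CON and 1.41, 1.45 and 0.38 TPM in T (difference -0.77, adjusted p = 0.104). It overlaps an exon of the lncRNA 1700015C17Rik on the same strand. Gm31748 on chromosome 14 had 0.84, 0.94 and 0.46 TPM in CON and was at 0 in all T mice (difference -0.79, adjusted p = 0.0373). 4930540I17Rik, the locus not found in the annotation, had 0, 0.45 and 3.73 TPM in CON and was listed at 0 in T, a difference that rests on CON mouse 3.

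57 of the 115 annotated loci had most of their 50-base windows repeated elsewhere in the genome, against 20 of the 80 other listed genes. Within these 57, 23 were higher and 34 lower in T, and within the 58 others 11 were higher and 47 lower. The called loci fell on both sides, with Gm28900, Gm10731, Gm14868 and Gm21435 among the recurring and Gm11243 among the unique. Some transcripts were very short. 4 loci (Gm28900, Gm7329, Gm14868 and Gm16212) have transcripts shorter than the 300-base fragments named in the labels, and TPM divides reads by length. What this did to their values was not tested. No locus matched the mitochondrial genome.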

How the data were processed

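Testis poly(A) RNA of 6 mice was sequenced as paired reads of 150 bases. Per the labels, the authors used fastp, HISAT2 on GRCm39, RSEM and DESeq2; the methods name HTSeq and FPKM, and they differ from the labels on the library kit. The authors deposited TPM per library with 2 decimals, and this unit was taken from the study's figures. Their fold changes, p-values and adjusted p-values served only to describe how the genes were selected and entered no test here. The deposited group means equal the means of the 3 libraries in all 196 rows. No column was left unmatched to a sample.

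Groups follow the library names. Values were compared as log2(TPM + 1), which understates changes of low genes, with limma 3.58.1 in R 4.3.3 over all 196 rows without a filter, Benjamini-Hochberg adjustment, and exact two-sided permutation tests. Positions and classes came from GENCODE vM39, closest genes from BLAST+ 2.17.0 against its transcripts (at least 80% identity and 80% cover), recurring windows from counts of each 50-base exon window on both strands, and alignments from MAFFT 7.526. Same-numbered mice are different animals (correlation of deviations -0.03 to 0.1). No label names a batch. By library name, T mouse 1 is n1_4 and T mice 2 and 3 are n3_3 and n3_6. What n1 and n3 stand for is not stated, so whether they mark batches is unknown. Over the listed genes T mice 2 and 3 correlated at 0.891, against 0.776 and 0.801 with T mouse 1.

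The 29 loci named by rule were the 8 of highest mean, those called, the highest 6 above 0 in all mice of one group and in none of the other, the 5 with the largest differences each way, the highest of each class, 5 protein-coding and 2 loci each on X and Y, and the 3 closest pairs. All other loci named were chosen after their values were seen. The single values of 1 of the 29 are not reported here. The loci, lists and tests were chosen with earlier results of these data known.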

Additional observations from a re-analysis of the deposited data

How the results depend on the processing

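Of the 29 loci named by rule, 220 of 256 alternative values stayed on the same side of the threshold, 21 lost and 15 gained a call, and none reversed (the replicate block, which took a further 3 calls, is not in this tally). Most of the 220 are uncalled loci that stayed uncalled, so this tally does not measure how stable the calls were. All 21 lost calls fell on Gm10731, Gm14868, Gm11243 and Gm21435, and of the called loci only Gm28900 kept its call throughout. The counts of called loci (2 higher, 3 lower) depend on each choice. With a pseudocount of 0.1, 8 were called lower; with a mean of at least 1 TPM, 1 lower; with median-ratio scaling, 10 higher and 1 lower; with unadjusted p-values under 0.05, 12 higher and 18 lower. With the replicate block, 2 were called higher and 0 lower by limma (19 lower at an unadjusted p-value under 0.05), but the numbers do not pair the mice. Leaving out 1 mouse gave 1 to 8 called higher and 1 to 15 called lower, the most without T mouse 2 and without CON mouse 2. The share of all listed genes called under each of these alternatives is not given here. Whether the shifts in called loci are particular to the Gm and Rik loci was therefore not tested. With 1 mouse out, 20 to 27 loci lay wholly above and 55 to 64 wholly below. Leaving out a mouse can only keep or raise these counts, so their rise says nothing about stability. The loci lying wholly below (52) numbered 26 at a mean of at least 1 TPM and 20 after scaling. The whole table shifted the same way with scaling, from 40 genes wholly above and 83 wholly below to 49 and 31. The median difference of -0.67 became -1.362 with a pseudocount of 0.1, -0.961 at a mean of at least 1 TPM and -0.305 after scaling, and ran from -0.646 to -0.539 with 1 mouse out. Counting only values of at least 0.1 TPM as detected gave 10 and 2 loci above it in all mice of CON or of T alone, in place of 8 and 3, and windows of 100 bases gave 53 mostly recurring loci in place of 57. The cause of the other shifts was not tested. TPM without read counts, 3 mice a group and a table of selected genes limit all values, and whether the group names or the sample titles are right sets what each direction means.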
